A study of Mus musculus with 41 samples.

Results

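Age-associated B cells (ABC) sorted from mouse spleen were compared between a MEK mutant genotype and wild type. The comparison took the 6 libraries of this subset out of 41 in the series: 3 labelled wt and 3 labelled 1Mek2, each from a different animal. The mutant mice carried Mek1flox/flox, Mek2+/- and the Tg+/Vav1-icre transgene, in which the Vav1 promoter drives the Cre recombinase in blood-forming cells and their progeny, so other blood cells of these mice carry the deletion too. The control mice were wild type, with no Cre control named, and all mice were 3 to 5 months old. Sorting used the B cell marker B220, the complement receptor CD21, the Fc receptor CD23, CD93, CD138, FAS and GL7; the gate of the ABC fraction is not given in the sources used here. Polyadenylated RNA was sequenced in bulk, where fewer cells of a type and less RNA per cell cannot be told apart.

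MEK1 and MEK2, encoded by Map2k1 and Map2k2, are the kinases that phosphorylate and activate ERK downstream of RAS and RAF. In B cells the cascade is engaged by the antigen receptor and leads to immediate early transcription, proliferation and plasma cell differentiation. Age-associated B cells are an antigen-experienced population known for T-bet (Tbx21), CD11c (Itgax) and low surface CD21 (Cr2) and CD23 (Fcer2a), and for responses to Toll-like receptor ligands.

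The ABC libraries held between 19157012 and 28461762 counts on genes, where a count is a read anywhere between gene start and gene end (gene-span count, given as CPM, counts relative to library size after TMM scaling). Reads on exons, recovered from the deposited TPM table, numbered 7897848 to 10194627 in wt and 15830023 to 25525294 in libraries labelled 1Mek2. Exon reads per 100 gene-span counts were 39.9, 41.2 and 50.02 in wt replicates 1 to 3 and 77.5, 72.7 and 89.7 in those labelled 1Mek2. The groups did not overlap (43.7 ± 5.51 against 79.96 ± 8.74, SD, n = 3 each; exact permutation p = 0.1, two-sided, the smallest that 3 against 3 allows). Genes with at least 10 exon reads numbered 6982, 8019 and 12340 in wt and 11926, 12683 and 14009 in libraries labelled 1Mek2. Spread within groups was wide, with a biological coefficient of variation of 1.07. The nuclear RNA Malat1 had exon levels of 35856, 23322 and 8459 CPM in wt and 3557, 2859 and 2254 CPM in libraries labelled 1Mek2, also without overlap. By the Y-linked gene Ddx3y, wt replicate 2 and 1Mek2 replicates 1 and 2 came from males and the others from females.

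**Figure D1:**
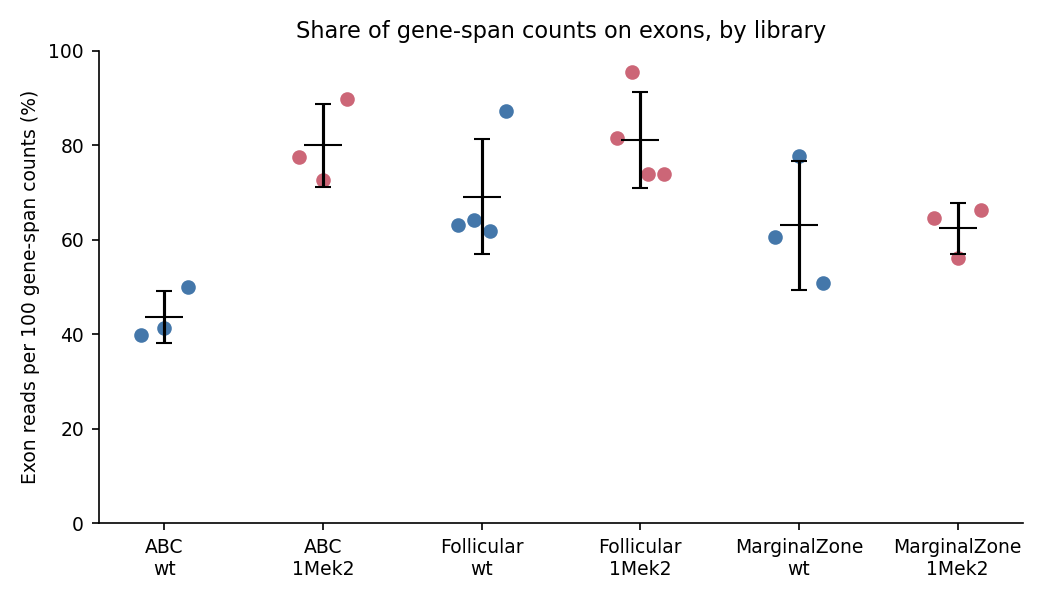
Exon reads per 100 gene-span counts (%) in each library of the ABC, Follicular and MarginalZone subsets, with wt in blue and 1Mek2 in red; bars are mean and SD. The 3 wt ABC libraries sit between 39.9 and 50.02, below the 3 labelled 1Mek2 at 72.7 to 89.7.

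The targeted genes did not give the pattern of the labels in both units. Map2k1 (GRCm39, chromosome 9, 64093066 to 64160887, minus strand) had 868, 868 and 243 CPM in wt and 141, 178 and 186 CPM in libraries labelled 1Mek2. Every library labelled 1Mek2 lay below every wt library, with a log2 fold change of -1.97 ± 0.81 (SE) and an edgeR adjusted p = 0.199. Of all tested genes spanning 50 to 100 kb, as Map2k1 does, 20.7% were lower without overlap. Their median log2 fold change was -1.01. On exons Map2k1 had 6.42, 2.49 and 23.2 CPM in wt and 12.7, 13.4 and 154 CPM in libraries labelled 1Mek2. The log2 fold change there had the opposite sign, at 2.48 ± 1.60 (edgeR adjusted p = 0.391), while wt replicate 3 lay above 1Mek2 replicates 1 and 2. The highest exon value was that of 1Mek2 replicate 3, and the exon groups overlapped. The deleted exons are not given in the sources used here, so whole-gene reads do not check the deletion itself. Map2k2 (chromosome 10, 80941749 to 80960531, plus strand) had 128, 2.46 and 104 CPM in wt and 356, 275 and 69.2 CPM in libraries labelled 1Mek2, a log2 fold change of 1.58 ± 1.12 with edgeR adjusted p = 0.426. The groups overlapped, wt replicate 2 stood lowest, and the libraries with 1 intact Mek2 allele were not lower. The text therefore writes "libraries labelled 1Mek2".

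Identity markers put the libraries apart from one another within each group. Tbx21, the T-bet transcription factor that marks these cells, had 2.28, 1.57 and 40.3 CPM in wt and 84.8, 260 and 13.1 CPM in libraries labelled 1Mek2, with overlap (log2 fold change 3.02 ± 1.46, edgeR adjusted p = 0.252). Itgax (CD11c) had 81.2, 82.3 and 67.1 CPM against 57.5, 107 and 8.48 CPM. Tbx21 was thus lowest in wt replicates 1 and 2, and Itgax was lowest in 1Mek2 replicate 3. Fcer2a, the CD23 gene that an ABC gate would keep low, had 0.551, 26.5 and 3.20 CPM in wt and 1.86, 3.41 and 784 CPM in libraries labelled 1Mek2. The last value belongs to replicate 3, and without that library the Fcer2a log2 fold change was -1.92 in place of 4.70. Cr2 (CD21) had 60.3, 81.4 and 141 CPM against 36.2, 10.6 and 210.5 CPM, highest again in 1Mek2 replicate 3.

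Of the 13 ABC identity genes listed, 12 were tested, and 0 passed the test. Cxcr3, a chemokine receptor, was without overlap higher in libraries labelled 1Mek2 (2.83, 0.547 and 7.22 against 220, 21.3 and 7.81 CPM), and the transcription factor Sox5 was without overlap lower (1385, 276 and 286 against 40.1, 83.4 and 2.61 CPM). On exons both overlapped. Zeb2, a repressor required for this lineage, had 4768, 3001 and 1761 CPM against 1746, 1912 and 114 CPM, with overlap between wt replicate 3 and 1Mek2 replicate 2.

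Markers of other cells also differed between the libraries, and their part in the results was not tested. The plasmacytoid dendritic cell genes, 12 in the list, summed to 14926, 13638 and 6946 CPM in wt and 10439, 3748 and 931 CPM in libraries labelled 1Mek2 (exact permutation p = 0.2). Their defining gene Siglech had 2355, 1836 and 1451 CPM against 1575, 314 and 2.84 CPM, so it was lowest in 1Mek2 replicate 3 and overlapped between the genotypes. Much of the wt sum was Tcf4 (5537, 6278 and 2439 CPM) and Irf8 (2804, 2292 and 1302 CPM), and Irf8 is also in the list of B lineage transcription factors. Of 11 tested members, 3 had a positive log2 fold change, and 1 was lower (9.09%) and 0 higher without overlap. Bst2 had 129, 64.1 and 122 CPM in wt against 1088, 259 and 33.2 CPM. Neutrophil genes, 10 in the list, summed to 0.393, 0.410 and 0 CPM in wt and 41.0, 170 and 33.1 CPM in libraries labelled 1Mek2, and erythroid genes, 10 in the list, to 85.01, 35.1 and 9.32 against 313, 273 and 85.25 CPM (exact permutation p = 0.1 for each, 0.367 adjusted over the 11 sums computed). The erythroid groups were parted only by 85.01 against 85.25, and on exons they overlapped (248, 123 and 17.6 against 404, 362 and 87.3 CPM, exact permutation p = 0.3), while the neutrophil sums did not (0.229, 0 and 0 against 37.7, 219 and 33.9 CPM). Sums for T cell genes (506 to 1753 against 172 to 1532 CPM), natural killer cell genes (31.3 to 592 against 28.4 to 729 CPM) and conventional dendritic cell genes (572 to 714 against 41.9 to 1087 CPM) overlapped. Those for monocyte and macrophage genes did too (168 to 707 against 197 to 973 CPM). Of 9 tested members of that list, 3 were higher (33.3%) and 0 lower without overlap, beside 15.6% and 10.8% of all tested genes.

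**Figure D2:**
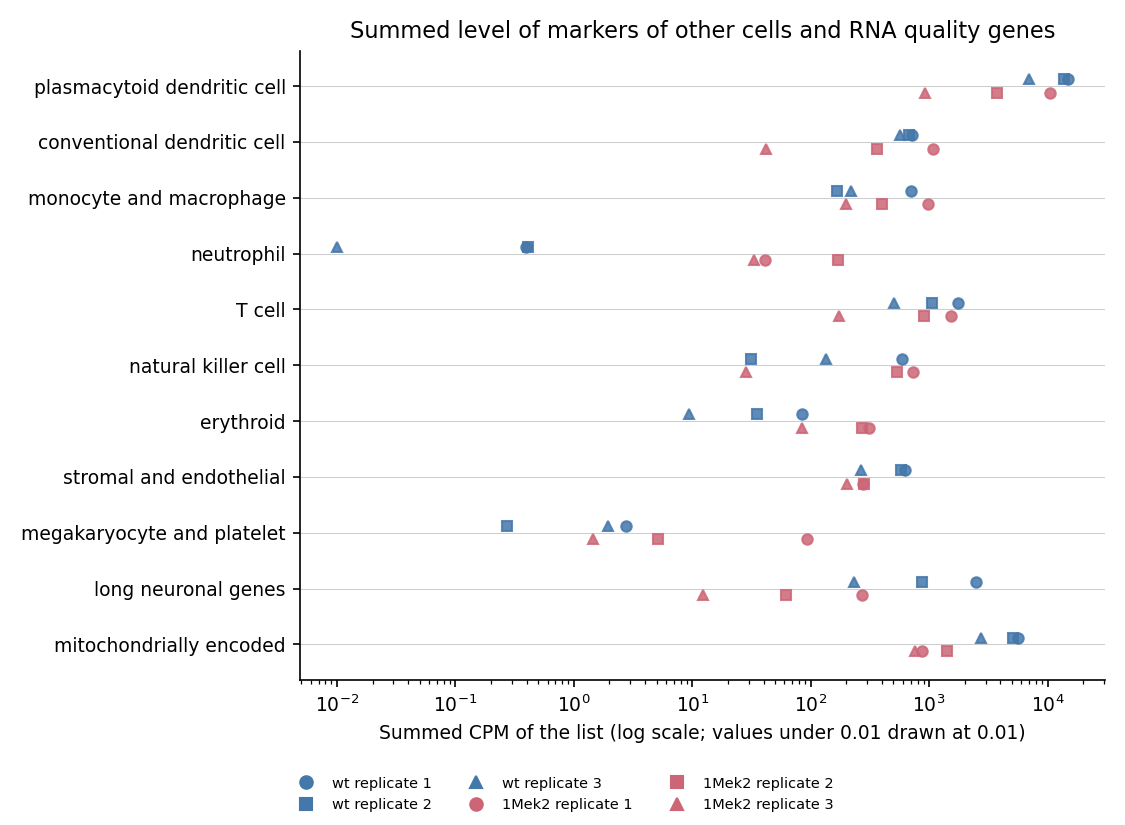
Summed CPM (log axis) of marker lists of other cells and of RNA quality genes in each ABC library; blue marks wt, red marks 1Mek2, and the shape gives the replicate. On gene spans, neutrophil and erythroid sums do not overlap between genotypes, the latter by 85.01 against 85.25 CPM, and 1Mek2 replicate 3 is lowest for plasmacytoid dendritic cell genes at 931 CPM.

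Granule genes of neutrophils were among 9 tested genes with 0 counts in every wt library. S100a8, which encodes a calcium-binding protein of neutrophils, had 131, 2359 and 174 counts in the 3 libraries labelled 1Mek2, at least 538-fold higher than the 3 counts that a total of 0 over the wt group allows. Camp (cathelicidin) was at least 368-fold higher on the same floor, Ngp at least 246-fold, and the erythroid chaperone Ahsp at least 187-fold. Without 1Mek2 replicate 2 these bounds were 87.5 for S100a8, 169 for Camp, 326 for Ngp and 82.9 for Ahsp, and without 1Mek2 replicate 3 they were 895, 561, 199 and 295. With 0 counts in wt, these 9 genes passed the expression filter only through the libraries labelled 1Mek2. Their side was thus fixed by the filter, and the bounds are no test of a difference. Tested neutrophil genes spanned 2586 bases at the median and erythroid genes 911, and 40.1% of all genes up to 5 kb were higher without overlap. The bounds and floors cover counting error only. S100a8 reached only 89.4 CPM, in replicate 2 of the libraries labelled 1Mek2, and was 5.54 and 4.46 CPM in the others.

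No gene passed the test between genotypes. Of 12583 genes tested, edgeR called 0 (0%) at an adjusted p below 0.05, and the lowest adjusted p was 0.0889. An unadjusted p below 0.05 was reached by 2517 genes, 1359 higher (10.8%) and 1158 lower (9.20%) in libraries labelled 1Mek2. On the same counts limma voom called 224 genes and DESeq2 1250. A fit that took its spread from the Follicular and MarginalZone libraries as well called 3375. The 3 wt and 3 1Mek2 libraries did not overlap for 1967 genes on the higher side (15.6%) and 1360 on the lower side (10.8%). With DESeq2-type size factors (RLE), which moved the median of all genes from 0.03 to -0.34 on the log2 scale, these became 1685 and 1631, so the share on the higher side went from 59.1% to 50.8%, while with library size alone it was 68.0%. On exon reads 0 of 11841 genes were called (2162 at unadjusted p below 0.05, 18.3%), with 1615 (13.6%) higher and 902 (7.62%) lower without overlap. Without 1Mek2 replicate 3, which stood apart on identity markers, edgeR called 2 genes. Groups of 3 and 2 leave more genes without overlap by construction: with 1 library left out in turn, 2451 to 3765 genes were higher and 1722 to 2289 lower. Both highest counts were those without wt replicate 3, and without 1Mek2 replicate 3 the counts were 2582 and 1756. p-values measure the spread between these animals.

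Among genes without overlap on either unit and averaging 5 CPM or more, the 10 with the smallest p on the higher side spanned 828 to 8161 bases: Mea1, Zfp414, Mrpl34, Yif1a, Rnaseh2c, Aurkaip1, Plekhj1, Lin37, Cdk2ap2 and Ctsa. Their log2 fold changes ran from 4.68 to 8.80. Mrpl34, a protein of the mitochondrial ribosome, lies on chromosome 8 from 71917570 to 71918397. It had 0.0786, 0.205 and 0.714 CPM in wt and 252, 168 and 45.5 CPM in libraries labelled 1Mek2 (log2 fold change 8.80 ± 1.61, edgeR adjusted p = 0.0889). Rnaseh2c, a subunit of the RNase H2 enzyme that removes ribonucleotides from DNA, had 0.236, 0.820 and 0.865 CPM against 195, 169 and 69.5 CPM (log2 fold change 7.79 ± 1.49, edgeR adjusted p = 0.0939). Ctsa, a lysosomal protease, had 7.86, 22.3 and 25.1 CPM against 656, 233 and 527 CPM. In each of these, wt replicate 3 was the highest of the wt libraries. The gap to the lowest library labelled 1Mek2 was set by the choice of genes without overlap.

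The 10 on the lower side spanned 14849 to 796659 bases: Tcf12, Inpp4b, Afg2a, Ralgapa1, Cdk13, Slc7a1, Hsf2, Gm51802, Mbnl1 and Mndal, with log2 fold changes from -5.25 to -2.72. Inpp4b, a phosphoinositide phosphatase, lies on chromosome 8 from 82068895 to 82865553. It had 6086, 2741 and 1544 CPM in wt and 471, 454 and 346 CPM in libraries labelled 1Mek2 (log2 fold change -3.03 ± 0.73, edgeR adjusted p = 0.119). Tcf12, an E-protein transcription factor, had 3001, 2079 and 1004 CPM against 281, 229 and 135 CPM (log2 fold change -3.24 ± 0.77, edgeR adjusted p = 0.119). Mbnl1, a splicing regulator, had 8027, 4455 and 2177 CPM against 951, 745 and 526 CPM. Hsf2, a heat shock transcription factor, had 558, 116 and 63.1 CPM against 15.4, 1.10 and 2.89 CPM. For these genes wt replicate 3 was the wt library nearest to those labelled 1Mek2.

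**Figure D3:**
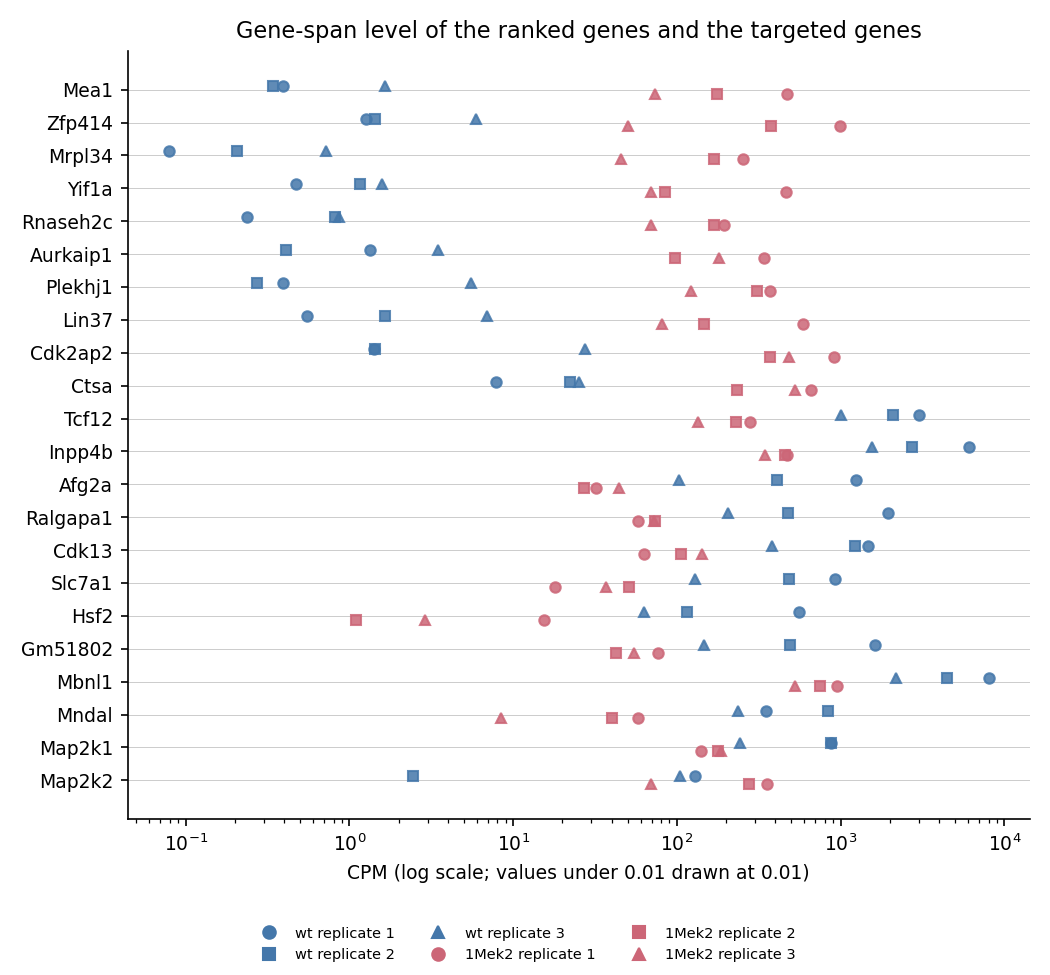
CPM (log axis) in each ABC library of the 20 genes ranked by p and of Map2k1 and Map2k2; blue marks wt, red marks 1Mek2, and the shape gives the replicate. The 10 upper genes are higher and the next 10 lower in all 3 libraries labelled 1Mek2, as their choice required. Map2k1 is lower without overlap and Map2k2 overlaps.

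The genotype difference followed gene span across the whole table. Spearman's rho between log2 fold change and span was -0.51 across 12583 genes, which are not independent replicates. The median log2 fold change was 1.92 for the 1624 genes up to 5 kb, 1.60 at 5 to 10 kb, 0.77 at 10 to 20 kb, -0.18 at 20 to 50 kb, -1.01 at 50 to 100 kb and -1.61 for the 1730 genes over 100 kb. Of genes up to 5 kb, 40.1% were higher and 1.66% lower without overlap, and of genes over 100 kb 1.39% were higher and 34.6% lower. Genes over 100 kb, tested or not, took 36.5%, 33.7% and 30.7% of all gene-span counts in wt and 15.8%, 17.7% and 11.4% in libraries labelled 1Mek2. On exon reads rho was -0.31, with medians of 1.24 up to 5 kb and -1.09 over 100 kb. The exon share of each library moved with the same groups, and its part in the difference cannot be told apart from genotype in these 6 libraries.

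With the trend against span taken out of each library, an alternative chosen after seeing the data, edgeR again called 0 genes (1953 at unadjusted p below 0.05), and the median log2 fold change of all genes was -0.45. This alternative is called gene-span offsets. A second alternative of that kind, called the exon share term, fitted each library's exon share over the ABC, Follicular and MarginalZone libraries together. The gene lists that follow are described by members without overlap, to be read beside 15.6% higher and 10.8% lower over all tested genes (13.6% and 7.62% on exons). Where a list median given below turned its sign or moved by over 1.5 times, values under such alternatives stand beside it, though not under every one.

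**Figure D4:**
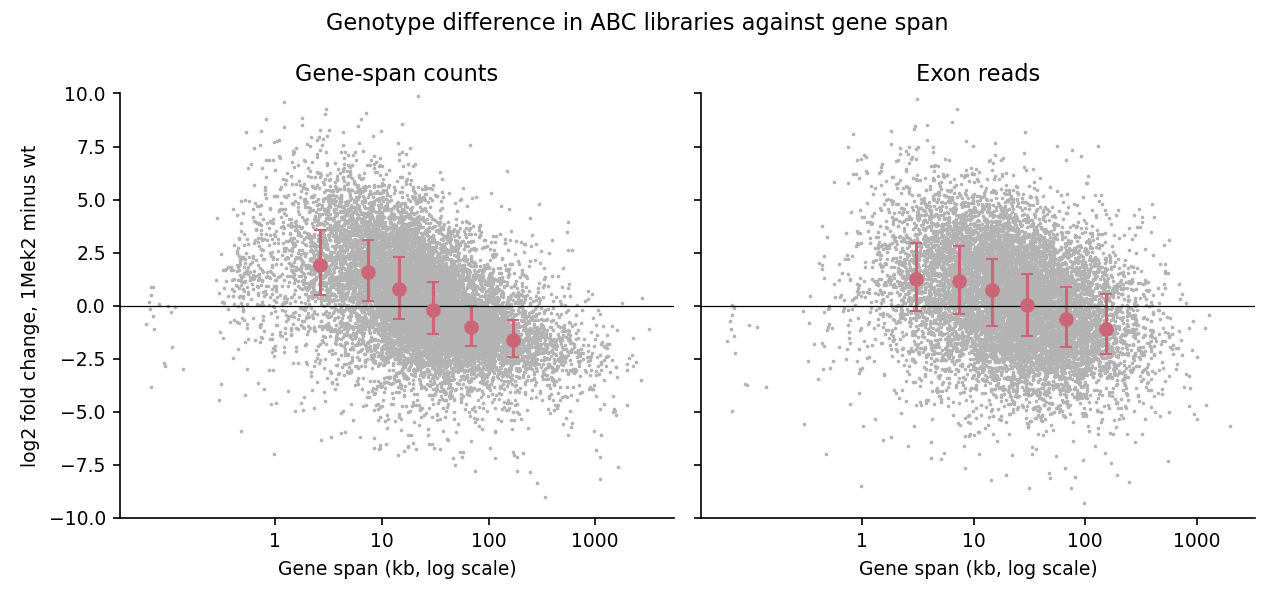
log2 fold change, 1Mek2 minus wt, of each tested gene against gene span (kb, log axis) for gene-span counts (left) and exon reads (right), drawn between -10 and 10; red points are medians and bars the middle 50% of genes in 6 span classes. Medians go from 1.92 to -1.61 on gene-span counts and from 1.24 to -1.09 on exon reads.

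Of 14 tested genes of antigen presentation by MHC class II, 6 were higher (42.9%) and 1 lower (7.14%) without overlap in libraries labelled 1Mek2, 0 were called, and the median log2 fold change was 1.88 beside 0.03 for all tested genes. On exons 7 of 16 were higher and 1 lower, with a median of 1.45. The median was 0.27 with gene-span offsets, 1.09 with the exon share term, 1.13 with DESeq2 and 0.65 without 1Mek2 replicate 3. The list's median span was 8565 bases, against 23984 for all tested genes. H2-Aa and H2-Eb1, the alpha chain of I-A and the beta chain of I-E, were the MHC class II genes of the list that also differed by test from the MarginalZone subset, so the 100 bases before their starts are shown. That call was lost for both on exons and turned its sign for H2-Aa with gene-span offsets, as given with the subset comparison. They are from RefSeq (GRCm38.p6), in the direction of the gene, with the Y box CTGATTGG in capitals, a motif bound by NF-Y in MHC class II promoters.
H2-Aa (chr17:34287824-34287923, minus strand): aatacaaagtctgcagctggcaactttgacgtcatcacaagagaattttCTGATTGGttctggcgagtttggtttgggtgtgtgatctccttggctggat
H2-Eb1 (chr17:34305767-34305866, plus strand): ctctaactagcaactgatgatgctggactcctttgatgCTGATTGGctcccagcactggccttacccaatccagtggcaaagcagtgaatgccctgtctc
The motif begins 51 bases before the start of H2-Aa and 62 before that of H2-Eb1. Searched on both strands in the 250 bases before the start, it was present for 3 of the 11 list genes in the RefSeq table (H2-Aa, H2-Eb1 and H2-Oa) and for 4.43% of all 27025 genes in it. A match is a description of these letters and not a measured site.

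H2-Eb1 had 47.2, 194 and 200 CPM in wt and 1641, 1580 and 2905 CPM in libraries labelled 1Mek2 (log2 fold change 3.79 ± 0.82, edgeR adjusted p = 0.112). H2-Aa had 550, 205 and 306 CPM against 2604, 2047 and 3067 CPM (2.86 ± 0.72). Neither overlapped, and both stayed without overlap on exons. H2-Ab1, the beta chain of I-A, had 1101, 724 and 500.0 CPM against 6062, 4791 and 4534 CPM. H2-DMa and H2-DMb2 encode the peptide exchange factor and were also higher without overlap (log2 fold changes 2.48 and 3.63). Cd74, the invariant chain, had 2931, 3448 and 3441 CPM against 9483, 8683 and 6870 CPM, and its exon reads overlapped. The exception was Marchf1, an 855204-base gene for the ubiquitin ligase that removes MHC class II from the surface, with 1839, 1017 and 608 CPM in wt and 311, 309 and 353 CPM in libraries labelled 1Mek2. It was lower without overlap on both units. With gene-span offsets the log2 fold changes of Cd74 (-0.69) and Marchf1 (0.67) turned their sign.

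B cell receptor genes split by side. Of 20 tested, 4 were higher (20%) and 5 lower (25%) without overlap, and the median log2 fold change was -0.14. The median had no stable sign: on exons, where 5 of 21 were higher and 3 lower, it was 0.93, with gene-span offsets it was 0.22, and with a library left out it ran from -0.50 (without 1Mek2 replicate 3) to 0.13 (without wt replicate 2). The median was -0.59 with RLE scaling, -0.45 with DESeq2, -0.052 with no filter, -0.043 with the exon share term and 0.046 without 1Mek2 replicate 1. Cd79b, a signalling chain of the receptor, had 72.5, 187 and 188 CPM in wt and 1419, 830 and 2099 CPM in libraries labelled 1Mek2 (log2 fold change 3.28 ± 0.80, edgeR adjusted p = 0.119). Cd79a, its partner, had 825, 160 and 459 against 2261, 2672 and 1648 CPM, and Cd72, an inhibitory co-receptor, had 3.15, 6.01 and 39.4 against 165, 139 and 898 CPM. These kept their sides on exons. On the lower side, Inpp5d (the phosphatase SHIP1) had 2464, 1640 and 1179 against 709, 950 and 264 CPM. Pik3ap1, the adaptor BCAP, had 2125, 1196 and 424 against 327, 309 and 218 CPM, but a log2 fold change of 0.98 on exons against -2.13 on gene spans. The adaptor Bank1 was lower without overlap on gene spans and overlapped on exons. Cd79a (-0.69) and Bank1 (0.38) turned their sign with gene-span offsets, and Inpp5d (0.91) with the exon share term.

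Of 14 B lineage transcription factors tested, 6 were lower (42.9%) and 1 higher (7.14%) without overlap, at a median log2 fold change of -1.03 and spanning 81748 bases at the median. On exons 3 were lower and 2 higher, with a median of -1.11, and without 1Mek2 replicate 2 the median was -1.68. With the exon share term it turned to 0.36. Ebf1, which specifies the lineage, had 3489, 4951 and 2646 CPM in wt and 682, 1377 and 972 CPM in libraries labelled 1Mek2. Bach2, a repressor of plasma cell differentiation, had 4681, 2076 and 1691 against 980, 784 and 679 CPM (log2 fold change -1.79 ± 0.69, edgeR adjusted p = 0.181). Mef2c, a calcium-responsive factor, had 1909, 2025 and 419 against 323, 351 and 303 CPM. These 3 stayed lower without overlap on exons, while Ikzf1, Ikzf3 and Foxo1, which complete the 6, overlapped there. The log2 fold change of Bach2 turned to 0.082 with gene-span offsets and to 0.37 with the exon share term, and that of Ebf1 to 0.11 with the exon share term. Pax5, the factor that holds B cell identity, overlapped (2051, 1523 and 1199 against 488, 1392 and 483 CPM). Spi1 (PU.1), which B cells and myeloid cells share, was the gene on the higher side, at 82.0, 3.69 and 47.4 against 358, 213 and 121 CPM.

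Of 20 members of the RAS to ERK cascade tested, Map2k1 included, 7 were lower (35%) and 1 higher (5.00%) without overlap on gene spans, 8 had a positive log2 fold change, and 0 were called. The median log2 fold change was -0.71. The list spanned 62855 bases at the median, and of all tested genes of 50 to 100 kb 20.7% were lower and 3.56% higher without overlap. On exons 0 were lower and 1 higher, with a median of -0.45. The median was 0.079 with limma voom and -1.17 with RLE scaling, and with a library left out it ran from -1.11 (without wt replicate 3) to -0.17 (without wt replicate 2). Among the 7 were Map2k1, the kinase gene Braf, whose product activates MEK, the scaffold Ksr1, the exchange factor Rasgrp1 that couples the antigen receptor to RAS, and the ERK substrate kinase Rps6ka3. Braf had 248, 232 and 127 CPM in wt and 51.2, 40.9 and 53.2 CPM in libraries labelled 1Mek2, with exon values of 7.11, 13.1 and 45.7 against 8.35, 13.2 and 28.0 CPM. On exons Ksr1 (0.96) and Rasgrp1 (0.56) turned their sign, as did Ksr1 (1.61) and Rps6ka3 (0.35) with the exon share term.

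Targets of ERK did not move to 1 side. In the list of ERK feedback genes and targets, 2 of 17 tested were lower (11.8%, near the 10.8% of all genes) and 0 higher without overlap, with a median of 0.37. The median was -0.27 on exons, where 0 of 16 were without overlap, -0.90 with gene-span offsets, -0.22 with RLE scaling and -0.11 without 1Mek2 replicate 3. Dusp6, the ERK phosphatase that reports pathway activity, had 0.315, 5.33 and 16.6 CPM in wt and 6.30, 3.83 and 30.9 CPM in libraries labelled 1Mek2, with overlap. Elk4, an ERK-responsive transcription factor, was lower without overlap (273, 83.2 and 45.4 against 27.8, 31.7 and 6.91 CPM). Among 16 immediate early genes tested, 4 were higher (25%) and 1 lower (6.25%) without overlap, with a median of 0.30. On exons 4 of 13 were higher and 1 lower and the median was -0.27. It was -1.28 with gene-span offsets, -0.22 in the fit over 3 subsets, -0.11 with no filter and -0.030 with RLE scaling. Ier2 had 6.45, 1.98 and 49.5 against 251, 196 and 251 CPM (log2 fold change 3.59 ± 1.20, edgeR adjusted p = 0.152), and Fos, Egr2 and Srf were higher at levels of at most 28.3 CPM. Egr1, a standard readout of ERK activity, had 8.02, 85.8 and 126 against 35.2, 36.2 and 1.152 CPM, with overlap, and Btg2, an antiproliferative gene, was lower (660, 809 and 471 against 274, 458 and 358 CPM).

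Of 19 ribosomal protein genes tested, 16 were higher (84.2%) and 0 lower without overlap, at a median log2 fold change of 3.08 and spanning 4263 bases at the median. On exons 11 of 20 were higher and 0 lower, with a median of 1.80. The median was 0.30 with gene-span offsets and 1.58 with the exon share term. Rplp0, of the ribosomal stalk, had 19.2, 20.9 and 46.2 CPM in wt and 496, 336 and 646 CPM in libraries labelled 1Mek2 (log2 fold change 4.10 ± 0.93, edgeR adjusted p = 0.119). The counts for oxidative phosphorylation were 10 higher (58.8%) and 0 lower of 17 (median 2.18), for glycolysis 6 (46.2%) and 0 of 13 (median 1.64), and for the cell cycle 6 (35.3%) and 0 of 17 (median 2.79). On exons they were 8 and 1 of 17 (median 1.53), 8 and 0 of 14 (median 2.77) and 5 and 0 of 17 (median 2.02). The oxidative phosphorylation median was 0.36 with gene-span offsets and 0.87 with the exon share term. That of glycolysis was 0.50 with the exon share term, 3.83 without wt replicate 3 and 2.64 without wt replicate 2. The cell cycle median was 1.56 with gene-span offsets, 0.30 with the exon share term, 4.78 without wt replicate 3 and 1.63 without 1Mek2 replicate 3. Pkm, the pyruvate kinase of proliferating cells, had 18.01, 13.1 and 39.3 against 331, 311 and 351 CPM. Gapdh, often used as a reference gene, had 4.25, 6.35 and 29.4 against 194, 269 and 128 CPM. Of the replication genes, Mcm5 had 0.551, 0.342 and 3.53 against 8.80, 55.6 and 37.1 CPM. The 1 mitochondrially encoded RNA in the table, mt-Rnr2, ran the other way, at 5632, 5092 and 2727 in wt and 863, 1418 and 760 CPM in libraries labelled 1Mek2.

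**Figure D5:**
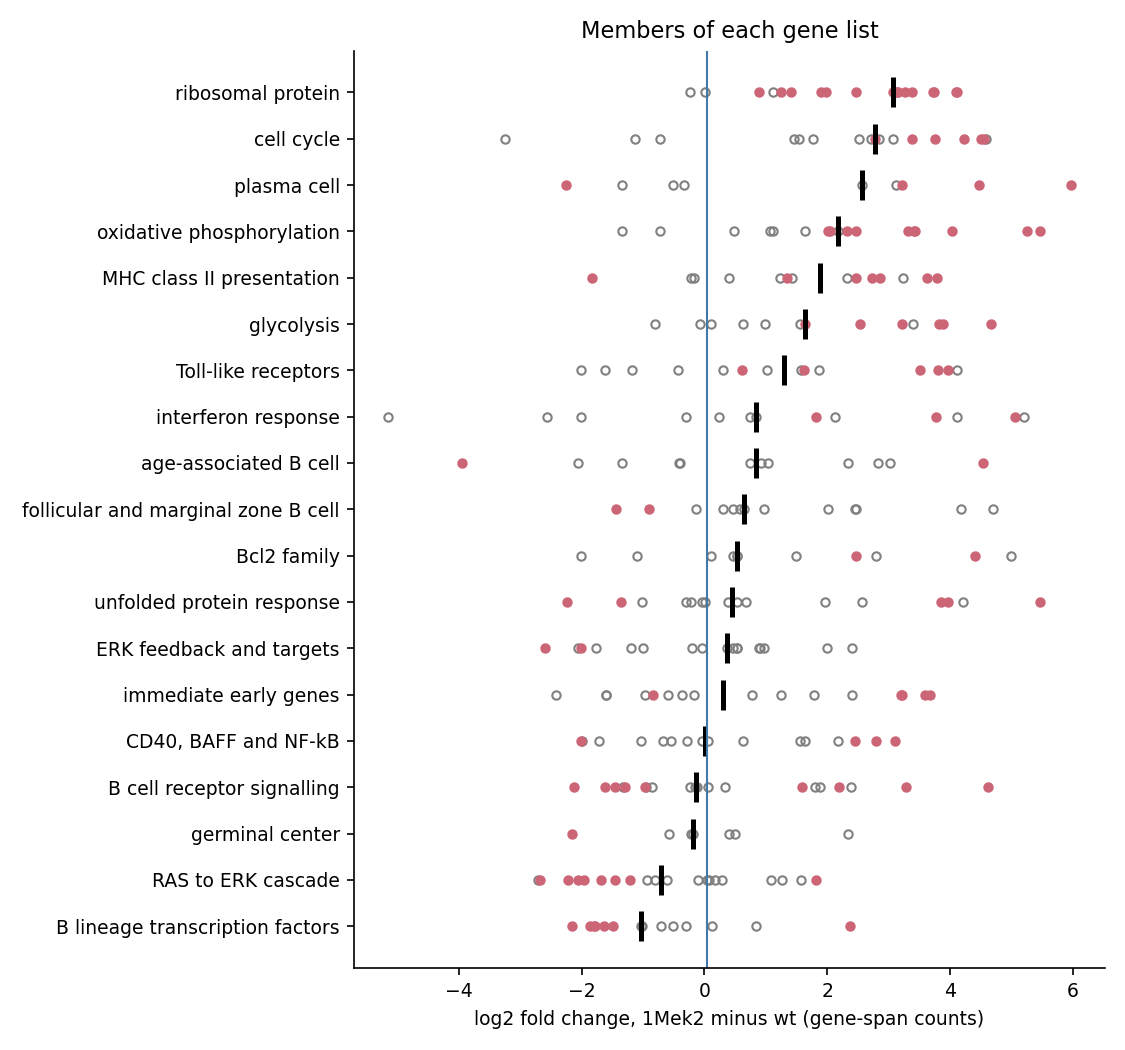
log2 fold change, 1Mek2 minus wt, of each tested member of the identity and program lists on gene-span counts; filled red points did not overlap between genotypes, open points did, black bars are list medians and the blue line the median of all tested genes at 0.03. Ribosomal protein genes have a median of 3.08 and B lineage transcription factors of -1.03.

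Plasma cell genes were mixed. Of 9 tested, 3 were higher (33.3%) and 1 lower (11.1%) without overlap, with a median of 2.57. On exons 4 were higher and 0 lower, with a median of 2.06. The median was 0.53 without 1Mek2 replicate 3, 1.06 in the fit over 3 subsets, 1.153 with no filter, -0.0027 with gene-span offsets and -0.18 with the exon share term. Jchain, which joins polymeric antibody, had 2.83, 7.86 and 3.53 against 46.9, 55.5 and 30.5 CPM, and the chaperone Mzb1 had 1.10, 1.91 and 34.3 against 176, 244 and 410 CPM. The unfolded protein response list lay near the shares of all genes, with 3 of 16 higher (18.8%) and 2 lower (12.5%). Manf was higher (1.02, 0.888 and 5.04 against 98.8, 32.4 and 177 CPM) and the sensor Atf6 was lower (667, 1002 and 367 against 104, 267 and 58.7 CPM). The list of CD40, BAFF and NF-kB genes was also near them, with 3 of 16 higher (18.8%) and 1 lower (6.25%). Nfkbia, the inhibitor of NF-kB, had 2.99, 28.1 and 56.2 against 185, 135 and 431 CPM, while the subunit Rel had 939, 508 and 242 against 92.9, 130 and 196 CPM. Of 14 genes of Toll-like receptor signalling 5 were higher (35.7%) and 0 lower on gene spans, with a median of 1.297, and 3 higher and 2 lower on exons, with a median of 0.43. The median was -0.56 with gene-span offsets, 0.55 with DESeq2 and 0.54 without 1Mek2 replicate 3, so neither its sign nor the 1-sided count held. Myd88, their shared adaptor, had 0.472, 3.07 and 3.65 against 12.9, 9.21 and 60.8 CPM.

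The genotype difference in ABC was tested against that in the other mature subsets in a fit of 20 libraries, 8 Follicular and 6 MarginalZone beside the 6 of ABC. Of the 6 ABC animals, 5 also gave a Follicular library and 4 a MarginalZone library, and the edgeR fit took the libraries as independent. It also shared 1 estimate of the spread per gene over the 3 subsets. The same fit called 3375 genes for genotype in ABC, where the fit of the ABC libraries alone called 0. The calls between subsets rest on that shared spread. Neither subset had a called gene of its own between genotypes (0 of 14128, with 1570 at unadjusted p below 0.05, and 0 of 12907, with 1132). The effect differed between ABC and Follicular for 36 of 15939 genes (0.226%), 34 higher (0.213%) and 2 lower (0.0125%) in ABC, and between ABC and MarginalZone for 1130 (7.09%), 732 higher (4.59%) and 398 lower (2.50%). Both sets shared 35 genes. With the animal as a random block in limma voom the numbers were 248 and 1348, holding 33 of the 36 and 769 of the 1130. Without wt ABC replicate 3 they were 2462 and 3905, and without wt ABC replicate 1 they were 12 and 352. A term for each library's exon share left 6 and 24, and removing the trend with gene span left 5 and 264.

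For the 34 genes the wt ABC libraries were the ones apart. In each of the 34, every wt ABC library lay below every wt Follicular library, and also below every wt MarginalZone library. Low wt ABC levels raise the difference by which these genes were called, so this is no separate test. The share over all genes in the fit is not given here. Their median span was 3618 bases, against 21257 for all genes in the fit. In this fit Rnaseh2c had 0.828 ± 0.482 CPM (SD, n = 3) in wt ABC and 182 ± 88.5 (n = 3) in ABC labelled 1Mek2, beside 93.1 ± 25.7 and 172 ± 117 (n = 4 each) in Follicular cells. The difference of differences was 6.87 ± 0.88 on the log2 scale (edgeR adjusted p = 0.0014). Mrpl34 had 0.435 ± 0.453 and 197 ± 137 CPM in ABC and 53.8 ± 16.0 and 116 ± 73.7 CPM in Follicular cells, a difference of 7.61 ± 1.08 (edgeR adjusted p = 0.0034). The levels of the libraries labelled 1Mek2 were thus of the same order in both subsets. The 10 with the largest differences were C1qa, Morn2, Gm50340, Mrpl34, 5830454E08Rik, Psmd10, Prxl2b, 2610306M01Rik, Timm10 and Rnaseh2c. C1qa, a complement gene of macrophages, had 0.0499 ± 0.0865 CPM in wt ABC and 33.2 ± 17.6 CPM in ABC labelled 1Mek2, against 17.2 ± 8.03 and 24.3 ± 6.27 CPM in Follicular cells. The 2 genes with a lower effect in ABC were Gm51802 and Dclk1, a microtubule-associated kinase that reached 480 CPM in 1 wt ABC library and was 0.349 CPM in the lowest.

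Against MarginalZone the lists gave called members on both sides. Beside 4.59% higher and 2.50% lower over all 15939 genes, ribosomal protein genes had 10 of 19 members with a higher effect in ABC, the unfolded protein response list 4 of 16 and the cell cycle list 3 of 22, each with 0 lower. The monocyte and macrophage list had 3 of 11 higher (C1qa, C1qc and Lyz2) and oxidative phosphorylation 3 of 17, also with 0 lower. H2-Aa and H2-Eb1 were 2 of 14 for MHC class II, with differences of 2.21 ± 0.62 and 3.12 ± 0.77 (edgeR adjusted p = 0.0386 and 0.029). On exons they were 1.20 and 2.20 and no longer called, and with gene-span offsets H2-Aa turned to -0.38 and H2-Eb1 was 1.32, not called. H2-Eb1 had 191 ± 118 CPM in wt ABC and 2512 ± 810 CPM in ABC labelled 1Mek2, against 1182 ± 628 and 1791 ± 549 CPM in MarginalZone cells (n = 3 each). Cd72 and Cd79b had a higher effect in ABC and Pik3ap1 a lower one, as had Bach2 and Ikzf1 among 14 B lineage factors. On exons Pik3ap1 turned to 0.81, and with the exon share term none of H2-Aa, H2-Eb1, Cd72, Cd79b, Pik3ap1, Bach2 and Ikzf1 was called. Bach2 was 3455 ± 1723 and 1017 ± 235 CPM in ABC and 404 ± 178 and 1024 ± 336 CPM in MarginalZone cells. Of the RAS to ERK cascade 0 of 20 members were called against either subset, and Map2k1 had differences of -1.86 ± 0.61 against Follicular and -1.72 ± 0.65 against MarginalZone cells (edgeR adjusted p = 0.125 and 0.0929). Gene span again went with the sides, with a median of 6881 bases for the 732 and 93057 for the 398.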

How the data were processed

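The authors deposited raw gene counts and a TPM table; the tools named in the submitters' processing notes are featureCounts 2.0.3, STAR 2.7.11a and Trim Galore 0.6.5, with the build GRCm39. The deposited counts span 1 interval per gene for 50760 of 50763 genes, so reads on introns are included. TPM deposited by the authors times exonic length gave whole multiples of 1 constant per library for 100% of values checked (tolerance 0.02 reads), which gave exon reads. How reads on overlapping genes or strands were assigned is not given in the sources used here.

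Groups came from the labels, and animals from the number in the library names. Tests used R 4.3.3 with edgeR 4.0.16 (TMM, filterByExpr, robust quasi-likelihood F test, two-sided, Benjamini-Hochberg adjustment over all tested genes, threshold 0.05), on the 6 ABC libraries or on all 20 of 3 subsets. Standard errors were derived from the test statistic. Alternatives used DESeq2 1.42.0, limma 3.58.1, exon reads, RLE scaling, no filter, a replicate block, a sex term and each library left out; gene-span offsets, an exon share term and the non-overlap counts under other scalings or with a library left out were chosen after seeing the data. Some of the procedures were run on simulated data, the test of the difference between subsets only at a dispersion of 0.05. The common dispersion of the ABC libraries was 1.15, so that run does not show how this test does at such a spread.

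The comparison and its 31 gene lists were chosen with earlier results of these data known. Named genes were Map2k1 and Map2k2; in each direction, up to 10 called genes with the largest change and the 10 with the smallest p among genes without overlap on either unit and averaging 5 CPM or more; the first 3 genes of each list; and list members of at least 5 CPM without overlap. Malat1 and Ddx3y were named as library checks. Some list members are not reported here.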

Additional observations from a re-analysis of the deposited data

Results flagged for a closer look

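By the edgeR test of the difference itself, the genotype difference in ABC was called as differing from that in Follicular cells for 36 genes. Against MarginalZone cells it was called for 1130. These calls rest on 1 spread per gene shared over the 3 subsets. With that fit 3375 genes were called for genotype in ABC, against 0 from the ABC libraries alone. Values below are the log2 fold change (1Mek2 minus wt) in ABC minus that in the other subset.

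Against Follicular cells the higher values were C1qa 8.45, Morn2 8.44, Gm50340 8.14, Mrpl34 7.61, 5830454E08Rik 7.57, Psmd10 7.47, Prxl2b 7.07, 2610306M01Rik 7.02, Timm10 6.998, Rnaseh2c 6.87, Mea1 6.80, Yif1a 6.503, Zfp414 5.98, Plekhj1 5.85, Aurkaip1 5.70 and Rplp0 3.12. The lower ones were Dclk1 -11.83 and Gm51802 -4.08.

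Against MarginalZone cells the genes of the report with a higher value were Ahsp 11.70, Fos 7.51, Mrpl34 7.39, Manf 7.34, Yif1a 6.64, Aurkaip1 6.54, Mcm5 6.54, Cd72 6.24, Mea1 6.22, Rnaseh2c 6.07, Tyms 6.0004, C1qa 5.79, Plekhj1 5.68, Zfp414 5.43, Pgam1 5.37, Lin37 5.15, Creld2 4.79, Myd88 4.67, Cdk2ap2 4.43, Ctsa 4.23, Mzb1 4.21, Rps3 4.03, Rplp0 3.69, Pkm 3.45, Cd79b 3.22, H2-Eb1 3.12 and H2-Aa 2.21. Those with a lower value were Hsf2 -5.38, Afg2a -4.90, Bcl6 -3.76, Ralgapa1 -3.74, Gm51802 -3.29, Cdk13 -3.28, Inpp4b -3.27, Tcf12 -3.23, Bach2 -3.11, Mbnl1 -2.79, Pik3ap1 -2.35 and Ikzf1 -2.21. Among all called genes the 10 largest on the higher side were Tomt 17.26, Glyctk 15.61, Prg2 15.47, Pilrb1 15.39, Gm7846 15.01, Gm57805 14.69, Nxf2 14.64, H2bc3 14.17, 4930413G21Rik 14.10 and Pf4 14.06. On the lower side they were Gm44262 -21.65, Gm17963 -19.39, Sbk3 -17.78, Anxa2r1 -16.27, Mir7671 -13.71, Plce1 -13.33, Tmod2 -13.13, BC023105 -13.08, Gm35795 -12.13 and 4930524J08Rik -11.81. For these 20 genes the fitted values depend on the prior count and are no bounds. Each of the 10 on the higher side had 0 counts in every wt ABC library. Most of these also had 0 in every MarginalZone library labelled 1Mek2. They passed the expression filter only through other groups, so their values are no test of a difference. Some on the lower side also had 0 counts in every library of a group. Ahsp, listed above, had 0 counts in every wt ABC library too. Several also rest on 1 library: Plce1 reached 913 CPM in 1 wt ABC library with 0.354 CPM in the lowest. The part of exon share and gene span in these differences was not tested beyond the fits that included them.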

How the results depend on the processing

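Leaving out each library in turn gave 0 to 30 called genes in ABC: 0 without wt replicate 3, 1 without wt replicate 1, 21 without wt replicate 2, 2 without 1Mek2 replicate 1, 30 without 1Mek2 replicate 2 and 2 without 1Mek2 replicate 3. The count was 309 with no filter, 1250 with DESeq2, 224 with limma voom, 3375 in the fit over 3 subsets and 245 there with the exon share term; RLE scaling, exon reads, the sex term and gene-span offsets gave 0. With the replicate block it was 0 (2010 genes at an unadjusted p below 0.05). Same-numbered libraries are of different animals, and their deviations correlated at 0.03, 0.03 and 0.10, so the numbers do not pair them. The difference from Follicular cells was called for 380 genes with no filter, 248 with limma voom and the animal as random block, 15 on exon reads, 5 with gene-span offsets, 6 with the exon share term and 11 to 2462 with a library left out: 12 without wt replicate 1, 15 without wt replicate 2, 2462 without wt replicate 3, 11 without 1Mek2 replicate 1 and 14 without 1Mek2 replicate 2. That from MarginalZone cells was called for 264 with gene-span offsets, 24 with the exon share term and 352 to 3905 with a library left out: 352 without wt replicate 1, 726 without wt replicate 2, 3905 without wt replicate 3 and 416 without 1Mek2 replicate 3. The causes were not tested.

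Of 92 named genes with a value under all 16 alternatives, 66 kept the direction of their log2 fold change in ABC. Many were named because their groups did not overlap in these same libraries, which favours a kept direction. Fcer2a and S100a8 had no DESeq2 value. On exon reads the sign turned for Map2k1 (2.48), Itgax (0.092), Pik3ap1 (0.98; 0.81 against MarginalZone cells), Ksr1 (0.96), Rasgrp1 (0.56) and Dusp6 (-0.010). With gene-span offsets it turned for Cd79a (-0.69), Bank1 (0.38), Pax5 (0.28), Bach2 (0.082), Dusp6 (-1.14), Cd74 (-0.69), Marchf1 (0.67) and, against MarginalZone cells, H2-Aa (-0.38). With the exon share term it turned for Zeb2 (1.84), Sox5 (0.10), Fcer2a (-0.051), S1pr1 (0.55), Notch2 (0.38), Inpp5d (0.91), Pax5 (1.498), Ebf1 (0.11), Bach2 (0.37), Ikzf3 (0.35), Foxo1 (0.13), Ksr1 (1.61), Rps6ka3 (0.35), Dusp6 (-4.0303), Elk4 (0.65), Egr1 (0.12), Myd88 (-0.00385) and Bcl6 (0.99). With a library left out it ran from -1.19 to 0.12 for Itgax, -1.92 to 7.10 for Fcer2a and -0.58 to 2.34 for Dusp6, each turning without 1Mek2 replicate 3, and from -2.01 to 0.40 for Cr2, which turned without wt replicate 3, 1Mek2 replicate 1 or 1Mek2 replicate 2. The difference in summed CPM turned for conventional dendritic cell genes (-455 to 67.7 with a library left out, the highest without 1Mek2 replicate 3), monocyte and macrophage genes (-72.8 on exon reads, -65.76 to 330.5 with a library left out, the lowest without 1Mek2 replicate 1), T cell genes (162 without TMM factors, -569 to 111 with a library left out, 83.9 without wt replicate 1 and 111 without 1Mek2 replicate 3) and natural killer cell genes (-40.1 on exon reads). Groups of 3 with a biological coefficient of variation of 1.07 limit what these libraries can show.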

Other observations

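Genes of long neuronal loci, which B cells are not known for, were highest in wt replicates 1 and 2. The 14 in the list summed to 2484, 878 and 231 CPM in wt and 272, 61.9 and 12.3 CPM in libraries labelled 1Mek2, so the groups overlapped. Of the 14, 7 were lower without overlap (50%), beside 10.8% of all tested genes and 34.6% of those over 100 kb. Dlg2, which encodes a synaptic scaffold, made up most of the sum in each wt library (1259, 753 and 197 CPM). On exons the sums were 647, 3.55 and 5.90 against 4.86, 8.60 and 0.841 CPM, high in wt replicate 1 alone. Their median span was 1582960 bases. Il7r, the IL-7 receptor of lymphoid progenitors and T cells, had 688, 274 and 158 CPM in wt and 72.6, 81.0 and 3.69 CPM in libraries labelled 1Mek2. Bcl6, the germinal center repressor, had 1239, 813 and 506 against 187, 306 and 77.9 CPM. Both were lower without overlap on gene spans and on exons. Nkg7, a granule gene of cytotoxic cells, had 1.57, 1.02 and 5.86 against 596, 460 and 8.48 CPM. The higher side was carried by replicates 1 and 2 of the libraries labelled 1Mek2.

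S1pr1, the receptor for exit along sphingosine 1-phosphate, had 1339, 1065 and 1054 CPM in wt and 711, 889 and 241 CPM in libraries labelled 1Mek2, and Notch2, which directs marginal zone fate, had 185, 415 and 235 against 104, 102 and 99.9 CPM. They were the 2 of 13 follicular and marginal zone genes without overlap, both lower (15.4%), and on exons 1 of 13 was. Of 11 Bcl2 family genes tested 2 were higher (18.2%) and 0 lower without overlap, and of 13 interferon response genes 3 (23.1%) and 0, beside 15.6% higher over all tested genes. On exons the interferon list had 1 higher and 1 lower of 12.

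Gene span went with the genotype difference in Follicular cells too, with Spearman's rho of -0.41 across genes and medians of 0.50 up to 5 kb and -0.41 over 100 kb, but hardly in MarginalZone cells (rho -0.01). Across ABC libraries the Spearman correlation of log2 CPM was lowest between wt replicate 1 and 1Mek2 replicate 3 (0.491) and highest between 1Mek2 replicates 1 and 2 (0.814). wt replicate 3 correlated more with 1Mek2 replicate 2 (0.776) than with wt replicate 1 (0.694).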
